A study of Mus musculus with 8 samples.

Results

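Transcripts of 34 genes of MHC class I and class II antigen presentation were followed in mouse haematopoietic stem cells (HSC) and multipotent progenitors (MPP). The genes were taken by symbol from a table of 53700 genes, by a list of names that uses no measured value. They comprise B2m with the classical class I genes H2-K1 and H2-D1, 7 class Ib and CD1 genes, 8 genes of peptide transport and loading, 5 immunoproteasome and activator genes, 6 class II genes and 5 transactivator genes. Of the 34, 33 had enough counts to be tested, among 12132 genes tested in all, and Rfxap did not. Cells came from marrow of donors on a CD45.2 background, given to irradiated wild-type CD45.1 hosts and sorted 13 weeks later, with 1 library per group, each a pool of 5 recipients. Both populations lay in the LSK gate (lineage-negative, Sca-1 and Kit positive), HSC being CD48- CD150+ and MPP CD48+ CD150-.

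The 4 donor labels were WT (Nfat5 +/+ with Vav-Cre), N5 (NFAT5-deficient, Nfat5 fl/fl with Vav-Cre), IFNAR (IFNAR1-deficient) and DKO (Nfat5 fl/fl with Vav-Cre and IFNAR1-deficient). NFAT5 switches on genes that protect cells from high salt, and IFNAR1 is needed by cells to sense type I interferons. Vav-Cre acts in blood-forming cells from early in their development, so the N5 and DKO deletions are not limited to HSC and MPP. No Cre is named for the IFNAR donors, and no label gives the age of donors or hosts. The hosts were wild-type at both loci, and WT and N5 differ from each other by the floxed alleles with the Cre shared. Should the IFNAR donors carry no Cre, their libraries also differ from WT and DKO by Cre. In those pairs Cre and the named loss then cannot be told apart. The design asks how HSC and MPP differ and what loss of NFAT5, of IFNAR1 or of both alters.

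MHC class I molecules show peptides from inside the cell to CD8 T cells, and natural killer cells read their amount. Peptides are cut by the proteasome, whose immunoproteasome subunits favour ends that fit class I, carried into the endoplasmic reticulum by TAP, trimmed by ERAP1 and loaded with the help of tapasin, calreticulin, calnexin and ERp57 onto a heavy chain bound to beta-2-microglobulin. Class II molecules are built with the invariant chain CD74, exchange it for peptide with the help of H2-DM, and show peptides to CD4 T cells. Type I interferon raises class I genes through the signalling of its receptor and through NLRC5, while CIITA with the RFX proteins drives class II genes. Class II is known mainly from professional antigen-presenting cells but has also been described on mouse HSC.

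Total counts ran from 28871693 to 47205950 per library, and the antigen presentation genes took 1.29% to 2.03% of them. Levels are library-scaled counts (CPM, with TMM factors), and the floor of 3 counts is 0.0633 to 0.105 CPM, which covers counting error only since PCR copies were not marked. Counts are not scaled by gene length, so levels are compared between libraries and not between genes. The 2 surface genes that divide HSC from MPP followed the sort: Slamf1 (CD150) had 88.7, 67.2, 52.2 and 89.97 CPM in HSC in the order WT, N5, IFNAR and DKO, an order kept in all that follows, and at most 0.0275 CPM in MPP, while Cd48 had 202, 271, 284 and 237 CPM in MPP and at most 6.36 CPM in HSC. The 2 targeted transcripts did not follow the labels. Nfat5 had 33.2, 22.7, 3.12 and 35.5 CPM in HSC and 5.59, 7.69, 0.193 and 11.5 CPM in MPP, lower in the library labelled as deficient in 1 of 4 matched pairs. Ifnar1 had 122, 126, 113 and 35.1 CPM in HSC and 37.2, 87.9, 43.8 and 125 CPM in MPP, lower in 2 of 4 pairs. No label gives the deleted part of either gene, and counts cover whole genes. Each genotype below therefore means the library labelled so, and every direction for Nfat5 or Ifnar1 loss rests on those labels.

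Promoters of the class I genes and of a class II gene are shown because type I interferon and the NLRC5 and CIITA complexes act on such promoters. The windows are the 250 bases before the RefSeq start on GRCm38.p6, which is an earlier build than the GRCm39 of the counts and is used for sequence only. Capitals mark 4 motifs on either strand: the interferon-stimulated response element core GAAANNGAA, the gamma-activated site TTCNNNGAA, the Y box CCAAT and the X1 box core AGCAAC. The windows lie at chr2:122147437-122147686 on the plus strand (B2m), chr17:34000348-34000597 on the minus strand (H2-K1, the first of 2 windows listed), chr17:35262844-35263093 on the plus strand (H2-D1), chr17:36042743-36042992 on the minus strand (H2-T22), chr17:36032702-36032951 on the minus strand (H2-T23) and chr17:34305617-34305866 on the plus strand (H2-Eb1).
B2m: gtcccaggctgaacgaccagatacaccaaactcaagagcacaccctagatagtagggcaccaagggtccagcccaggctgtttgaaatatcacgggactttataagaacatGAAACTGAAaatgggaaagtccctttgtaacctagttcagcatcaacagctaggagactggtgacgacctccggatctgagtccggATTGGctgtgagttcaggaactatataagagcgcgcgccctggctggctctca
H2-K1: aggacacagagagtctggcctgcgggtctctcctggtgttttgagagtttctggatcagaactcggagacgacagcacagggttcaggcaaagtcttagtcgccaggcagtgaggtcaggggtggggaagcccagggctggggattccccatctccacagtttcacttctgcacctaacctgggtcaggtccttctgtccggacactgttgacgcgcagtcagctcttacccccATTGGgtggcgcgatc
H2-D1: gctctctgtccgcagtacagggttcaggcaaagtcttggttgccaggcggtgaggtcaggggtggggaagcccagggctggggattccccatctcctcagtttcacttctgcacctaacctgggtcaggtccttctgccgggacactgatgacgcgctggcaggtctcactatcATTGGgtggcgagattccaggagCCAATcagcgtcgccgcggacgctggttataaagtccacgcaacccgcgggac
H2-T22: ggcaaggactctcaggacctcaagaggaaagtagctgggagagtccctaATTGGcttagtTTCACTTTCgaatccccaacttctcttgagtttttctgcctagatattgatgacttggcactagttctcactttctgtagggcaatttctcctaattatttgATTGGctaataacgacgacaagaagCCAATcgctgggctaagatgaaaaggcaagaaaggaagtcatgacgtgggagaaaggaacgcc
H2-T23: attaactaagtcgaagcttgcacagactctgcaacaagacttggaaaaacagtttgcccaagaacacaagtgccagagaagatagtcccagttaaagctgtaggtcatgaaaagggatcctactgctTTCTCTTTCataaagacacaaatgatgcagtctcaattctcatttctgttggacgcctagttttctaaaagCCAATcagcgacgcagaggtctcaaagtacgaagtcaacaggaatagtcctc
H2-Eb1: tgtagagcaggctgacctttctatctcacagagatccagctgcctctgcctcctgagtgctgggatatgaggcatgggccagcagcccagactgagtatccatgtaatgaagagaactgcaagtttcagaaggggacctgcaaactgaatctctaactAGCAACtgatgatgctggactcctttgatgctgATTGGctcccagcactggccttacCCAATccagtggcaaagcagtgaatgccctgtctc

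RefSeq windows matched 26 of the 34 genes, in 29 windows. The Y box was in 22 of the 29 windows, those of 21 genes, against 33.8% of all 32851 windows of the table. The interferon-stimulated response element core was in windows of 4 genes, B2m, H2-T22, H2-T23 and Erap1, against 7.13% of all windows. It lay 139 bases before the B2m start, 190 before H2-T22 and 123 before H2-T23. The gamma-activated site was in windows of H2-M3 and Psmb8 (7.02% of all windows), and the X1 core in those of Canx, H2-Eb1 and Rfx5 (12.2%). A match is a string of letters and not a measured binding site. Only exact letters were searched, so a window without a match may still hold a variant of the element. Tap1 and Psmb9 start 225 bases apart on opposite strands, so their windows overlap.

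In all 4 genotype labels, HSC held more transcripts of the classical class I genes than MPP. H2-K1, a classical class I heavy chain, had 4405, 4951, 3955 and 4461 CPM in HSC and 3357, 3255, 2352 and 2482 CPM in MPP. H2-D1, the other classical heavy chain, had 3414, 3552, 3261 and 3047 CPM in HSC and 2439, 2418, 1843 and 1874 CPM in MPP. B2m, the light chain that all of them need, had 2010.4, 1977, 1691 and 1842 CPM in HSC and 1648, 1547, 1296 and 1166 CPM in MPP. For each of these 3 genes the lowest HSC library lay above the highest MPP library. Means over the 4 libraries were 4443 ± 407 against 2862 ± 518 CPM for H2-K1, 3319 ± 217 against 2144 ± 329.8 CPM for H2-D1, and 1880.2 ± 146 against 1414 ± 222 CPM for B2m (SD, n = 4 libraries of different genotype).

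**Figure D1:**
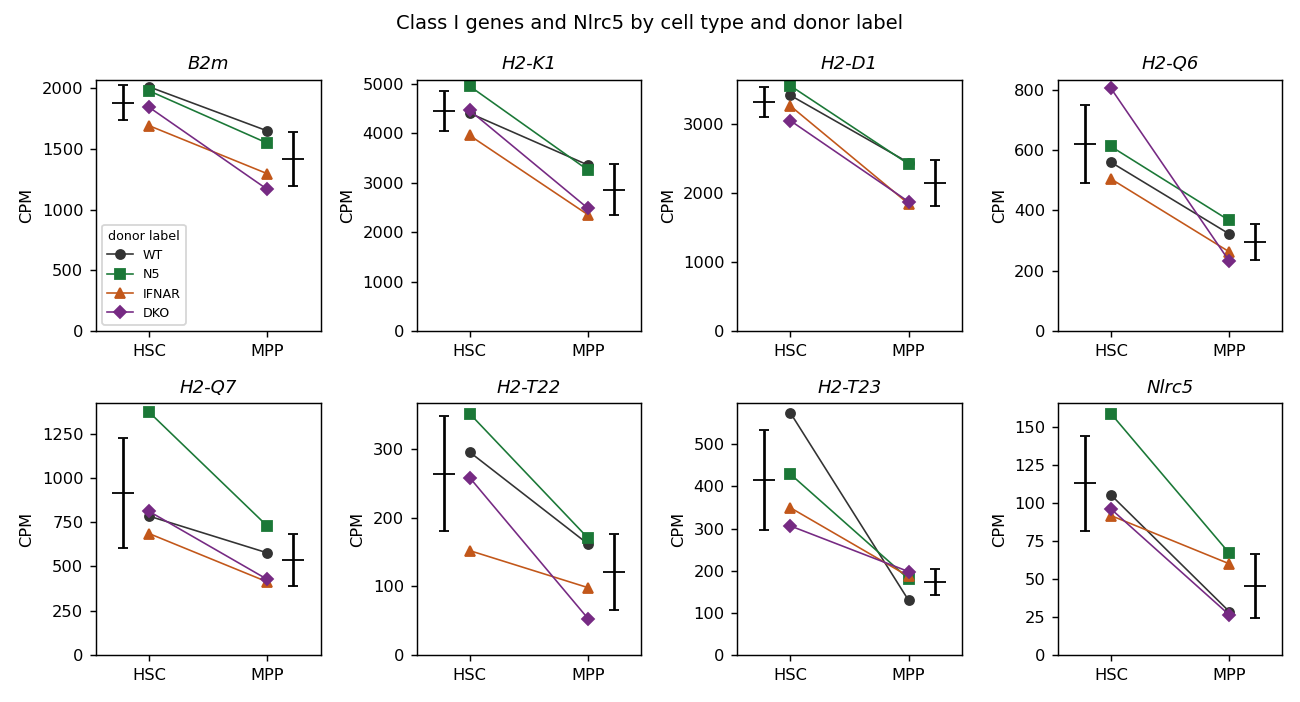
Levels in CPM (vertical axes, from 0) of B2m, 6 class I heavy chain genes and Nlrc5 in HSC and MPP, with 1 point per library, lines joining libraries of the same donor label, and black bars for the mean and SD of the 4 libraries of a cell type. The genes drawn are the 8 members higher in HSC at an unadjusted p under 0.05 in edgeR, so their fall to MPP follows from that choice. H2-Q4, H2-M3 and Cd1d1 are not drawn. Every line runs down from HSC to MPP, and only in H2-Q7 and H2-T22 do the ranges of the cell types overlap.

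Class Ib genes, whose products present to natural killer and unconventional T cells or restrict narrower sets of peptides, showed the same order in 4 of 7 members. H2-Q7, of the Qa-2 family, had 785, 1373, 686 and 811 CPM in HSC and 577, 728, 413 and 427 CPM in MPP, higher in HSC in each genotype although the highest MPP library lay above the lowest HSC library. H2-Q6, of the same family, had 559.8, 612, 505 and 805 CPM in HSC and 322, 367, 263 and 232 CPM in MPP, with no overlap. H2-T23, which encodes Qa-1, a ligand of natural killer receptors, had 575, 429, 349.6 and 306 CPM in HSC and 129.5, 180.4, 187 and 198 CPM in MPP. H2-T22, a ligand of some gamma-delta T cells, had 295, 351, 152 and 258 CPM in HSC and 162, 170.2, 97.9 and 52.9 CPM in MPP, and its HSC library labelled IFNAR lay below the MPP libraries labelled WT and N5. The 3 other class Ib and CD1 genes gave no such order. H2-M3, which presents formylated peptides, had 25.5, 23.2, 44.8 and 162 CPM in HSC and 40.2, 59.3, 65.8 and 28.4 CPM in MPP, standing out in the HSC library labelled DKO. Cd1d1, which presents lipids to NKT cells, had 89.5, 70.98, 49.9 and 58.03 CPM in HSC and 61.5, 66.7, 67.5 and 114 CPM in MPP, highest in the MPP library labelled DKO. H2-Q4 was low throughout, from 0.220 to 17.5 CPM. The H2 class I genes are close in sequence, and RSEM divides reads that fit several of them by estimation, so the split among them is uncertain.

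By edgeR's quasi-likelihood test with genotype as a block, HSC minus MPP on the log2 scale was 0.64 ± 0.10 (SE) for H2-D1 (adjusted p = 0.167), 0.65 ± 0.11 for H2-K1 (0.184) and 0.42 ± 0.10 for B2m (0.309). It was 0.76 ± 0.12 for H2-Q7 (adjusted p = 0.183), 1.06 ± 0.21 for H2-Q6 (0.245), 1.23 ± 0.28 for H2-T23 (0.279) and 1.20 ± 0.31 for H2-T22 (0.324). None passed 0.05, which 2 of 12132 genes did (0.0165%). With 1 library per group, the error of each test is the variation its model leaves out, here 3 residual degrees of freedom, so the p-values measure only the spread between these libraries. DESeq2 with the same model called all 7, with adjusted p from 8.87e-15 for H2-D1 to 7.68e-04 for H2-T22, where it called 15.5% of all genes. limma-voom called H2-D1, H2-K1 and H2-Q7, where it called 1.29% of all genes. The class I call between HSC and MPP therefore depends on the tool. The direction in the 4 pairs was read from the scaled counts and not from these fits, so it could not vary with the tool. These 7 are also the class I genes at an unadjusted p under 0.05, so their shared direction is no independent support.

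Nlrc5, which encodes the transactivator of class I genes, had 105, 159, 91.8 and 96.1 CPM in HSC and 28.6, 67.04, 60.03 and 26.4 CPM in MPP, and again no MPP library reached the lowest HSC library. The fitted difference was 1.40 ± 0.32 (edgeR adjusted p = 0.279, DESeq2 adjusted p = 9.77e-05). Its mean of 113 ± 31.1 against 45.5 ± 21.03 CPM made it the largest of the fitted HSC to MPP differences among the 8 higher genes at an unadjusted p under 0.05. Those 8 were B2m, H2-K1, H2-D1, H2-Q6, H2-Q7, H2-T22, H2-T23 and Nlrc5, of 33 tested, where 4.45% of all genes were higher at that p. The peptide-loading chaperone gene Calr was the 1 member lower at that p, where 5.65% of all genes were. It had 387, 428, 406 and 421 CPM in HSC and 612, 534, 662 and 631 CPM in MPP, without overlap, and a fitted difference of -0.57 ± 0.11 (edgeR adjusted p = 0.251, DESeq2 adjusted p = 6.23e-06).

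Counted by libraries, 9 of 33 genes were higher in HSC in 4 of 4 genotype pairs, the 8 above and the immunoproteasome gene Psmb10, against 9.81% of all genes. Calr alone was lower in 4 of 4, against 12% of all genes. In 6 of 33, B2m, Nlrc5, H2-K1, H2-D1, H2-Q6 and H2-T23, all HSC libraries lay above all MPP libraries, against 4.73% of all genes, and in 1 of 33 below, against 5.65%. Among genes with a mean of at least 100 CPM, the first of these held for 5 of 25 members and 7.09% of 2340 genes. Median differences, HSC minus MPP, were 0.64 for B2m with the classical genes and 1.06 for class Ib and CD1 genes, against -0.10 for all genes tested.

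**Figure D2:**
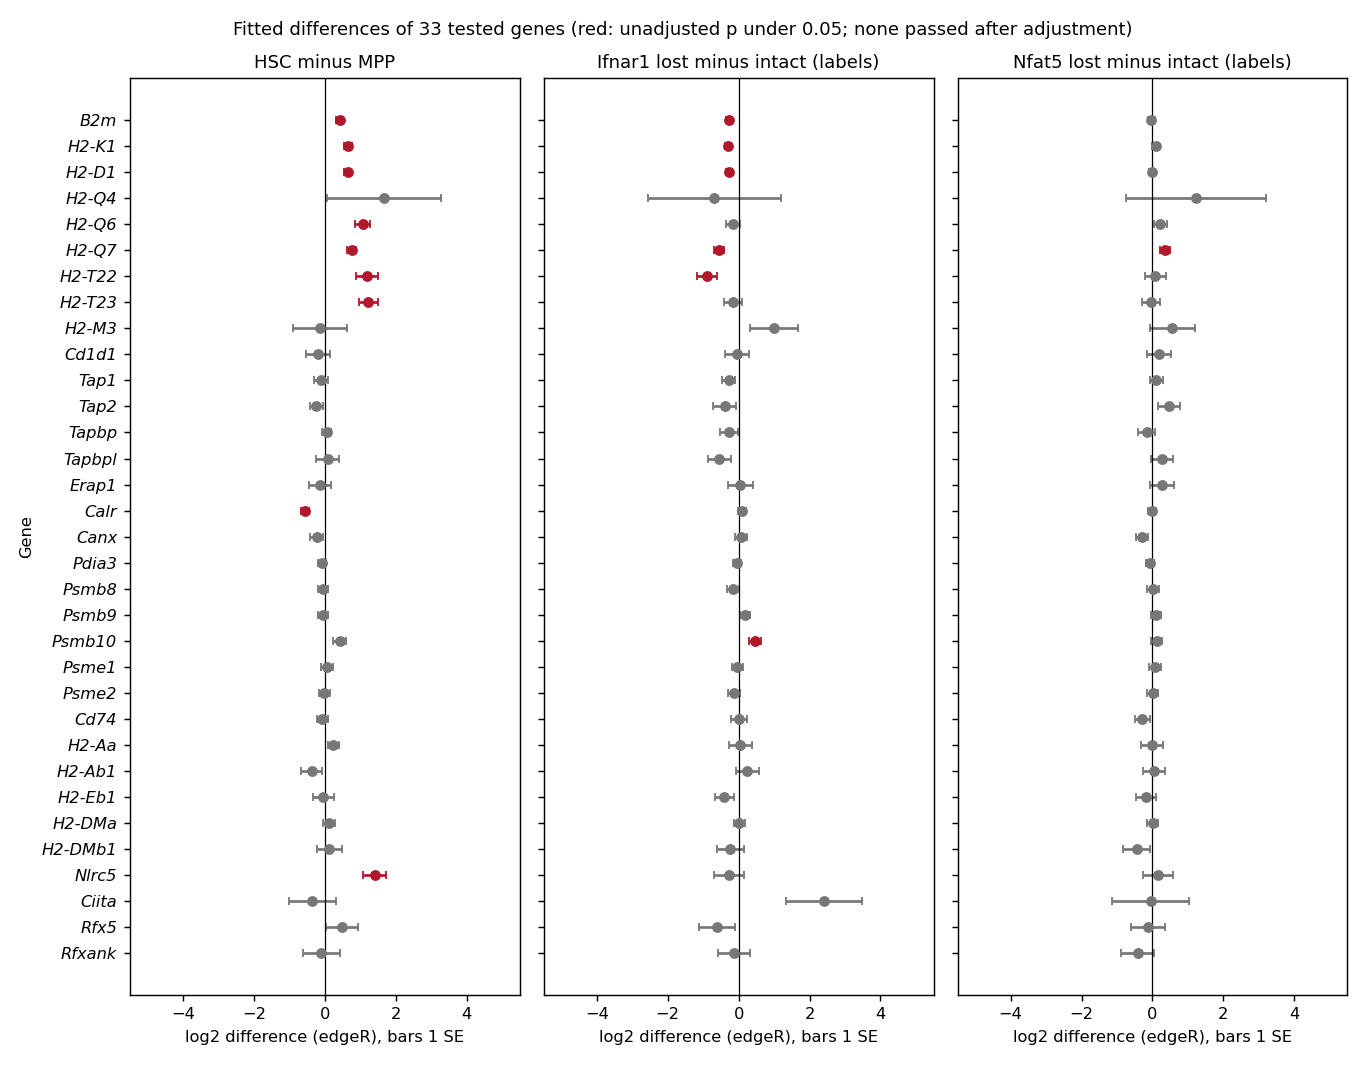
Fitted log2 differences (horizontal axes) with bars of 1 SE for the 33 tested genes in the contrasts HSC minus MPP, Ifnar1 lost minus intact and Nfat5 lost minus intact, with red for an unadjusted p under 0.05 in edgeR. The red points are 9 genes on the left, 6 in the middle and 1 on the right, and none passed after adjustment.

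The genes that supply and load peptides did not share that order. Of the 8 transport and loading genes, 2 were higher and 6 lower in HSC, with a median of -0.13, and of the 5 immunoproteasome and activator genes 2 were higher and 3 lower, with a median of -0.01. Tap1, a subunit of the peptide transporter, had 351, 429, 254 and 398 CPM in HSC and 437, 411, 392 and 294 CPM in MPP. Psmb8 and Psmb9, catalytic immunoproteasome subunits, were nearly level. Psmb8 had 447, 703, 556 and 461 CPM in HSC and 587, 576, 583 and 481 CPM in MPP, and Psmb9 had 159, 203, 226 and 215 CPM in HSC and 187, 214, 214 and 209.5 CPM in MPP. In both genes and in Tap1 the HSC and MPP libraries overlapped. Among all 34 genes the narrowest spread over the 8 libraries was that of Pdia3, the gene of ERp57, from 718 to 911 CPM, a 1.27-fold range. Psme2, of the proteasome activator PA28, spanned a 1.38-fold range and H2-DMa, of the peptide-exchange factor, also 1.38-fold.

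In the remaining loading and proteasome genes the HSC and MPP libraries overlapped too. Tap2, the partner of Tap1, ran from 167 to 456 CPM and Tapbp, the gene of tapasin, from 342 to 701 CPM, both lowest and highest in HSC libraries. Erap1, the trimming peptidase, had 93.1, 299, 244 and 192 CPM in HSC but 221, 224, 205 and 196 CPM in MPP, so that the HSC library labelled WT stood below the other 7. The related Tapbpl ran from 33.1 to 90.6 CPM, and the chaperone gene Canx had 552, 331, 414 and 469 CPM in HSC and 499, 488, 646 and 429 CPM in MPP. Psmb10 had 117, 153, 199.9 and 198 CPM in HSC and 115, 101, 124 and 154 CPM in MPP, and its HSC to MPP difference of 0.42 ± 0.18 had an edgeR adjusted p of 0.534. Psme1, the partner of Psme2, ran from 396 to 571 CPM with overlap of the cell types.

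**Figure D3:**
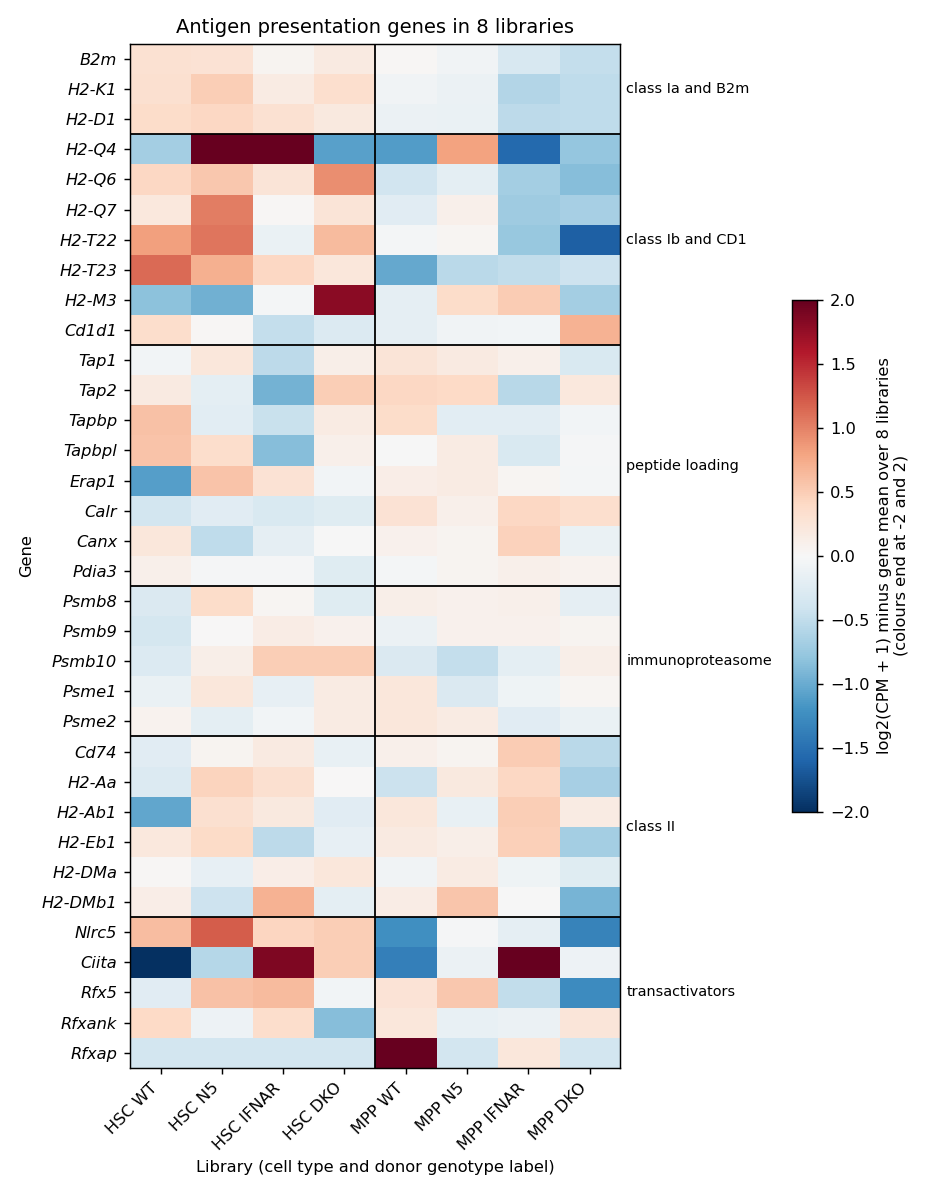
Level of each of the 34 genes (rows, by role) in the 8 libraries (columns), as log2(CPM + 1) minus the gene's mean over the libraries, red above and blue below that mean, with colours ending at -2 and 2. The HSC columns are redder for most class I rows, while loading, immunoproteasome and class II rows show no common split between HSC and MPP.

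Class II transcripts were present in all 8 libraries and had no common order between HSC and MPP. Cd74, the invariant chain, had 422, 512, 557 and 443 CPM in HSC and 530.2, 509, 702 and 339 CPM in MPP. The alpha chain gene H2-Aa had 235, 387, 354 and 285 CPM in HSC and 211, 327, 381 and 178 CPM in MPP. Its partner H2-Ab1 had 169, 435, 395 and 296 CPM in HSC and 407, 314, 490.1 and 389.6 CPM in MPP, lowest in the HSC library labelled WT. H2-Eb1, the beta chain of I-E, had 219, 246, 130.1 and 168 CPM in HSC and 213, 204, 263 and 118 CPM in MPP, with its lowest level in the MPP library labelled DKO. H2-DMb1, of the peptide-exchange factor, had 114, 77.8, 168 and 90.4 CPM in HSC and 115, 153, 104 and 53.9 CPM in MPP. For all 5 the HSC and MPP libraries overlapped. Of the 6 class II genes 3 were higher and 3 lower in HSC, with a median difference of 0.03, and none had an unadjusted p under 0.05.

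Ciita, the transactivator of class II genes, spread most among the transactivators that were tested, over 32.1-fold. It had 2.35, 10.47, 61.4 and 23.2 CPM in HSC and 5.63, 14.7, 75.3 and 14.9 CPM in MPP. Both libraries labelled IFNAR held the highest level of their cell type, and both libraries labelled WT the lowest. The class II structural genes shared that order in part. In MPP, Cd74, H2-Aa, H2-Ab1 and H2-Eb1 were likewise highest in the library labelled IFNAR, but lowest in the one labelled DKO, or in the one labelled N5 for H2-Ab1. In HSC, Cd74 was lowest in the library labelled WT and highest in the one labelled IFNAR, as Ciita was. H2-Aa and H2-Ab1 were also lowest under WT in HSC but highest under N5, and H2-Eb1 was lowest under IFNAR. The RFX genes, whose products bind the X box, ran from 19.9 to 76.2 CPM for Rfx5 and from 18.9 to 46.1 CPM for Rfxank. Rfxap had 127 counts in the MPP library labelled WT, 19 in the one labelled IFNAR and 0 in the other 6, too few to test.

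**Figure D4:**
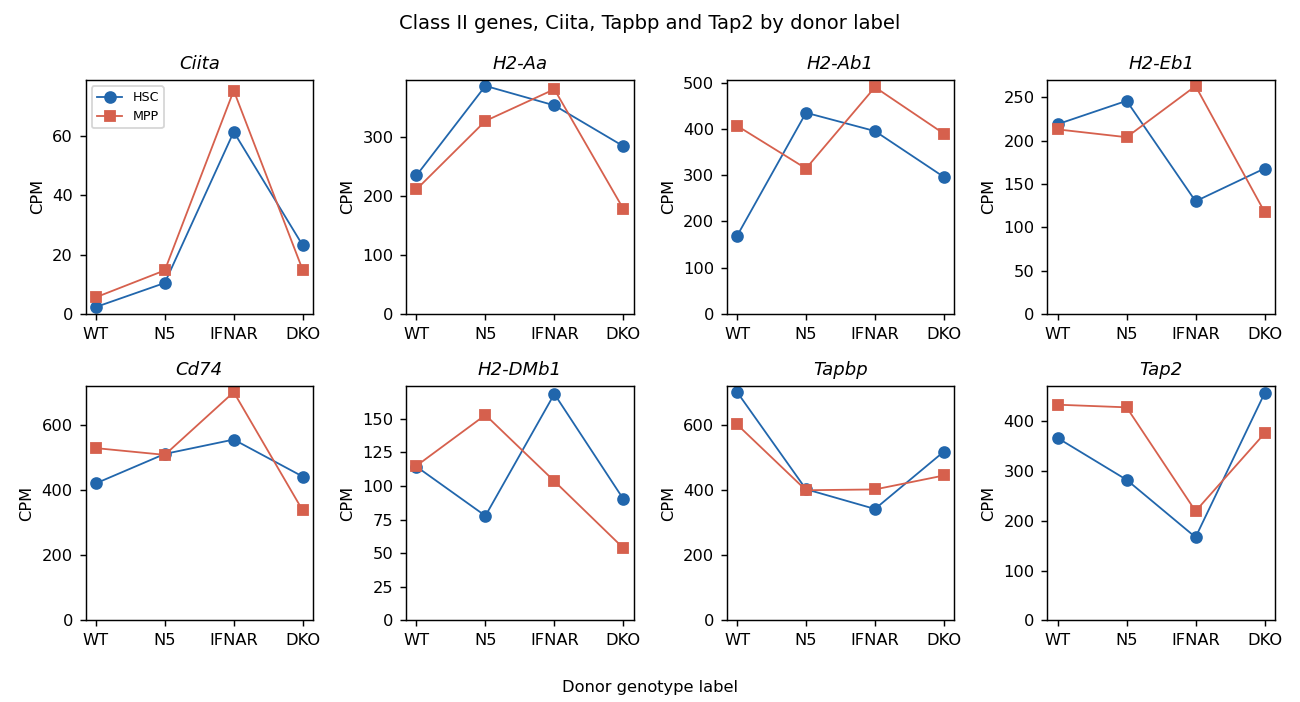
Levels in CPM (vertical axes, from 0) of Ciita, 5 class II genes, Tapbp and Tap2 by donor label (horizontal axes), with circles for HSC and squares for MPP and 1 library per point. Ciita peaks in the libraries labelled IFNAR at 61.4 and 75.3 CPM, and the lines of Tapbp and Tap2 are lowest there in HSC.

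Markers of other cell types, some of which carry class II, were read in the same libraries. B cell genes, 8 listed, summed to 60.6, 34.7, 109 and 30.7 CPM in HSC and 75.9, 55.8, 89.6 and 75.1 CPM in MPP. In both cell types the B cell sum was highest in the library labelled IFNAR, where Ciita was highest too. Cd79b made 24.1 to 89.4 CPM of these sums. Pax5 was at 0 in all HSC libraries. Dendritic cell genes, 8 listed, summed to 46.7, 12.6, 0 and 0 CPM in HSC and 61.5, 43.3, 48.8 and 25.7 CPM in MPP. Their sum was highest under WT in both cell types. Cd209a was at 0 in all 8 libraries and 6 of 8 genes were at 0 in all HSC libraries. Monocyte and macrophage genes, 9 listed, summed to 54.05, 10.2, 10.7 and 9.46 CPM in HSC and 227, 110.7, 275 and 223 CPM in MPP. This sum was highest under WT in HSC and under IFNAR in MPP, and 5 of 9 genes were at 0 in all HSC libraries. T and NK cell genes, 7 listed, summed to at most 26.1 CPM, with Cd3e, Cd3d, Cd3g and Trac at 0 in all 8 libraries. The part of such cells in the class II and Ciita levels, and in how these differ by label, was not tested. In such bulk pools fewer cells with a transcript and less transcript per cell cannot be told apart.

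In libraries labelled as lacking IFNAR1, transcripts of H2-K1, H2-D1, B2m, H2-Q7 and H2-T22 were lower than in the matched libraries in all 4 pairs, each pair sharing cell type and Nfat5 label. HSC and MPP pools of the same label may share recipients, so the 4 pairs of a genotype contrast may not be independent. From the values above, H2-K1 averaged 3313 ± 1056 CPM in the libraries labelled IFNAR and DKO against 3992 ± 824 CPM in WT and N5 (SD, n = 4 libraries over both cell types). H2-Q7 averaged 584 ± 197 against 866 ± 349 CPM and H2-T22 140.2 ± 88.4 against 245 ± 93.8 CPM. These SDs include the difference between HSC and MPP, which the fits remove. The smallest of the pairwise differences for H2-D1 was -0.07 on the log2 scale, between the HSC libraries labelled IFNAR and WT. Ly6a, the gene of Sca-1, which is part of the LSK gate, differed the same way: it had 304, 228, 137 and 120.3 CPM in HSC and 93.1, 150.1, 45.2 and 54.5 CPM in MPP. It was lower in 4 of 4 pairs, with a fitted difference of -1.16 ± 0.22 (edgeR adjusted p = 1, DESeq2 adjusted p = 3.74e-04), and higher in HSC in 4 of 4 genotypes, by 1.26 ± 0.24 (edgeR adjusted p = 0.241). Its part in the class I differences was not tested.

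Fitted differences, lost minus intact, were -0.56 ± 0.14 for H2-Q7, -0.30 ± 0.09 for H2-K1, -0.89 ± 0.28 for H2-T22, -0.26 ± 0.08 for H2-D1 and -0.28 ± 0.09 for B2m, on the log2 scale with SE. These are 5 of 33 genes lower at an unadjusted p under 0.05, where 2.02% of all genes were. Psmb10 was the 1 of 33 higher at that p, by 0.46 ± 0.17, where 1.26% of all genes were. The edgeR adjusted p was 1 for all 6, and edgeR called 0 of 12132 genes (0%) in this contrast. DESeq2 called H2-Q7 (adjusted p = 0.00592), H2-K1 (0.0297), H2-D1 (0.031) and B2m (0.0321), where it called 1.92% of all genes, but not H2-T22 (0.0632). The 6 members at an unadjusted p under 0.05 became 2 without the MPP library labelled WT or without that labelled N5, and 4 without the HSC library labelled IFNAR or without the MPP library labelled IFNAR or DKO.

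Over all members, 7 of 33 were lower in 4 of 4 pairs, namely B2m, H2-K1, H2-D1, H2-Q7, H2-T22, Tap1 and Tapbpl, against 6.16% of all genes. Among genes with a mean of at least 100 CPM these were 6 of 25 members and 7.61% of genes. Higher in 4 of 4 were Psmb10 and Ciita, 2 of 33, against 5.9% of all genes. Ciita differed by 2.41 ± 1.07 (edgeR adjusted p = 1, DESeq2 adjusted p = 0.0913), but in MPP the libraries labelled DKO and N5 were at 14.9 and 14.7 CPM, a log2 difference of 0.01. Of the 33 genes 22 were lower, where 6117 of 12132 genes were, with a median of -0.15 against -0.01 for all genes. B2m with the classical genes had a median of -0.28, class Ib and CD1 genes -0.16, loading genes -0.16, immunoproteasome genes -0.03 and class II genes 0.02.

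Of the 4 genes with the interferon-stimulated response element core in their promoter window, B2m and H2-T22 were lower in 4 of 4 pairs, and H2-T23 and Erap1 were not. H2-K1, H2-D1, H2-Q7 and Tap1, whose windows hold no exact match to it, were lower in 4 of 4 pairs too. Variants of the element were not searched, so these genes cannot be said to lack one. Erap1 differed by 0.05 ± 0.35 and was lower in 3 of 4 pairs. H2-T23 was lower in the HSC libraries that lack IFNAR1 by label, 349.6 and 306 against 575 and 429 CPM, and higher in the MPP libraries, 187 and 198 against 129.5 and 180.4 CPM. Its interaction of cell type with the Ifnar1 label was -0.92 ± 0.36 on the log2 scale (edgeR adjusted p = 0.999). H2-T23 was the 1 of 33 genes with an unadjusted p under 0.05 there, where 4.82% of all genes were, and edgeR called 0% of genes after adjustment. That count was 0 without the HSC library labelled DKO or the MPP library labelled IFNAR, 2 without the HSC library labelled IFNAR and 3 without the HSC library labelled N5.

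For Nfat5 loss by label (N5 set against WT, and DKO against IFNAR), 1 of 33 antigen presentation genes, H2-Q7, was at an unadjusted p under 0.05. H2-Q7 was higher in 4 of 4 pairs, by 0.36 ± 0.14 on the log2 scale (edgeR adjusted p = 1, DESeq2 adjusted p = 0.19), from 0.05 in the MPP libraries labelled DKO and IFNAR to 0.81 in the HSC libraries labelled N5 and WT. At that p 1.41% of all genes were higher. H2-Q7 was also the 1 of 33 higher in 4 of 4 pairs, against 5.79% of all genes. None was lower at that p, against 1.38%, and none was lower in 4 of 4 pairs, against 5.35%. Leaving out the libraries of HSC labelled WT, IFNAR or DKO, or the MPP library labelled WT, each took H2-Q7 past an unadjusted p of 0.05 and the count to 0. edgeR called 0% of all genes after adjustment and DESeq2 1.37%, with no antigen presentation gene among them. The next members by p were Canx (-0.30 ± 0.18), Tap2 (0.47 ± 0.31), Cd74 (-0.29 ± 0.22), H2-DMb1 (-0.45 ± 0.37) and H2-Q6 (0.23 ± 0.19), all with an edgeR adjusted p of 1. The median over the 33 genes was 0.02, and over all genes 0.02.

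Whether the Nfat5 difference was the same in HSC and MPP was tested by an interaction. Tap1, the 1 of 33 genes at an unadjusted p under 0.05, where 4.42% of all genes were, was at 429 against 351 CPM and 398 against 254 CPM in HSC. In MPP it was at 411 against 437 CPM and 294 against 392 CPM. So both HSC libraries labelled as Nfat5-deficient were higher and both MPP libraries lower than their partners. The interaction was 0.72 ± 0.24 (edgeR adjusted p = 1), and edgeR called 0% of genes. The count of members was 0 without the HSC library labelled DKO or the MPP library labelled IFNAR, and 2 without the HSC library labelled IFNAR or the MPP library labelled WT or N5.

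The Nfat5 difference varied with the Ifnar1 label at an unadjusted p under 0.05 in 4 genes, Tapbp, Tap2, H2-Aa and Ciita, with opposite signs for the loading genes and for H2-Aa and Ciita. Tapbp had 701, 403, 342 and 518 CPM in HSC and 601, 399, 402 and 445 CPM in MPP. In each cell type the library labelled N5 was below WT and the one labelled DKO above IFNAR. Tap2 had 366, 282, 167 and 456 CPM in HSC and 433, 428, 219.5 and 376 CPM in MPP, with N5 below and DKO above its partner. H2-Aa and Ciita, whose values are given above, did the reverse in both cell types: N5 was above WT and DKO below IFNAR.

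The interaction term, DKO minus IFNAR less N5 minus WT, was 1.06 ± 0.25 for Tapbp, 1.32 ± 0.35 for Tap2, -1.37 ± 0.33 for H2-Aa and -3.49 ± 1.32 for Ciita on the log2 scale. The edgeR adjusted p was 1 for all 4 and edgeR called 0% of genes. At an unadjusted p under 0.05 the 4 of 33 stood beside 3.33% of all genes, and leaving out single libraries gave 3 to 7, with 7 without the MPP library labelled WT. DESeq2 called the same 4, Tapbp (adjusted p = 6.56e-04), H2-Aa (0.00311), Tap2 (0.0104) and Ciita (0.0211), where it called 3.24% of all genes. limma-voom gave each an adjusted p of 0.854. All 6 class II genes had a negative term, as 5991 of 12132 genes did, with a median of -0.83 against 0.01 for all genes. Of the 6 only H2-Aa was at an unadjusted p under 0.05. They were read in the same pools, so their shared sign is not 6 separate observations. By pair, the class II median for the Nfat5 label was 0.22 in HSC and 0.09 in MPP with Ifnar1 intact, and -0.32 in HSC and -0.998 in MPP with it lost. Each of the 8 libraries is a single pool, so the term cannot be told apart from differences between those pools. Nor can the term be told apart from a Cre difference, if the IFNAR donors carry no Cre.

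Of 51 other genes of the pathway, among them class I relatives, endosomal proteases, constitutive proteasome subunits, transcription factors and co-stimulatory ligands, 39 were tested. Between HSC and MPP 4 were higher and 4 lower at an unadjusted p under 0.05, where 4.45% of all genes were higher and 5.65% lower. Their median was -0.19, against -0.10 for all genes, and edgeR called none after adjustment. Pomp, a proteasome assembly factor, had an HSC to MPP difference of -0.59 ± 0.17 (edgeR adjusted p = 0.362), from 86.1 to 112 against 144 to 151 CPM. Ctss, the protease that trims the invariant chain, differed by -1.84 ± 0.54 (edgeR adjusted p = 0.37), from 9.86 to 33.2 against 31.6 to 93.6 CPM.

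For Ifnar1 loss 2 of the 39 were lower at an unadjusted p under 0.05 and none higher, where 2.02% of all genes were lower and 1.26% higher. Irf9, a DNA-binding subunit of the complex that type I interferon activates, had 126, 237, 46.3 and 31.5 CPM in HSC and 85.2, 154, 50.02 and 44.7 CPM in MPP and differed by -1.72 ± 0.37 (edgeR adjusted p = 1, DESeq2 adjusted p = 4.44e-04), and in each cell type both libraries labelled as lacking IFNAR1 lay below both that keep it. Ctss came next, by -1.09 ± 0.47. For Nfat5 loss 1 of the 39 was higher at that p and none lower, near the 1.41% and 1.38% of all genes. This was Cd274, the gene of the inhibitory ligand PD-L1, which had 39.4, 126, 25.1 and 68.5 CPM in HSC and 24.02, 17.5, 6.25 and 59.9 CPM in MPP and differed by 1.60 ± 0.65 (edgeR adjusted p = 1). Ctsb and Psmb6 followed with -0.30 ± 0.15 and -0.24 ± 0.15.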

How the data were processed

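Polyadenylated RNA from 8 pools of sorted mouse cells was purified on micro columns and copied into cDNA by Smart-Seq2, a full-length method, per the labels' protocols. The method marks neither strand nor molecules, so PCR copies are counted and antisense or overlapping genes share reads. STAR 2.7.8a, RSEM 1.3.0 and GRCm39 are named in the submitters' processing notes. The authors deposited whole-number counts for 53700 genes, without normalization. The annotation release and the rounding of RSEM's estimates are not stated in these sources.

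Counts were tested in R 4.3.3 with edgeR 4.0.16 (glmQLFit and glmQLFTest at the installed default, TMM factors, filterByExpr by cell type, Benjamini-Hochberg over 12132 genes, threshold 0.05). The tested genes held 99.3% to 99.6% of counts per library. The cell type contrast had a block for genotype label and 3 residual degrees of freedom, while the Ifnar1 and Nfat5 contrasts had cell type and both labels as terms and 4. Each of 3 interactions was added to that additive model in turn, leaving 3. The scripts were tested on simulated data. Differences between single libraries were taken on the log2 CPM scale after adding 2 counts, scaled to library size, to each count. DESeq2 1.42.0, limma-voom (limma 3.58.1), RLE factors, 2 other filters, the bias-adjusted quasi-likelihood method, a fit without the block and leaving out each library were alternatives. Alternatives for the interactions were chosen after seeing the data.

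All 34 genes are accounted for. Values in every library are given for 12 core genes and the 6 of smallest p in each contrast, and up to 3 other pathway genes per contrast are named, of which some are left out of the text and not reported here. Some further values, among them Ly6a, Erap1, Cd1d1, H2-M3, Tapbp, Hfe, Mr1 and the interaction genes, were chosen for print after they were seen. The genes, lists and tests were chosen with earlier results of these data known. Promoter windows came from a RefSeq table of GRCm38.p6.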

Additional observations from a re-analysis of the deposited data

Results flagged for a closer look

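In 5 of 68 groups of 4 libraries (34 genes in HSC and in MPP), 1 library stood far from the other 3, and chance flags about 1 in 20 such groups. H2-M3 had 162 CPM in the HSC library labelled DKO, against 23.2 to 44.8 CPM in the other HSC libraries. Cd1d1 had 114 CPM in the MPP library labelled DKO, against 61.5 to 67.5 CPM. Psmb8 had 481 CPM in that library, below the 576 to 587 CPM of the other MPP libraries. Ciita had 75.3 CPM in the MPP library labelled IFNAR, against 5.63 to 14.9 CPM. Rfxap had 4.20 CPM in the MPP library labelled WT, against 0 to 0.523 CPM.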

How the results depend on the processing

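The choice of tool moved the calls most. Between HSC and MPP, edgeR called 2 genes and no antigen presentation gene. A filter of 10 CPM in 4 libraries gave 23 genes. DESeq2 gave 1880 genes with 9 antigen presentation genes among them, limma-voom 156 with 3, and edgeR with no genotype block 207 with 4 (Calr, H2-D1, H2-Q6 and H2-T23). For Ifnar1 loss, edgeR called 0 genes, DESeq2 233 with 4 antigen presentation genes and limma-voom 1 gene. For Nfat5 loss, edgeR called 0 genes and DESeq2 166, and limma-voom put 2 antigen presentation genes at an unadjusted p under 0.05 where edgeR put 1. For the Nfat5 by Ifnar1 interaction, DESeq2 called 393 genes with 4 antigen presentation genes, and 8 of these genes were at an unadjusted p under 0.05 against 4 with edgeR.

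Leaving out each library in turn gave 0 genes called between HSC and MPP, with 9 to 10 antigen presentation genes at an unadjusted p under 0.05. That count ran from 2 to 7 for Ifnar1 loss, 0 to 1 for Nfat5 loss, 0 to 3 for cell type by Ifnar1, 0 to 2 for cell type by Nfat5 and 3 to 7 for Nfat5 by Ifnar1. The share of all genes at that p was not counted in the alternative fits, here or above. Changes in these counts therefore cannot be read as particular to the antigen presentation genes. The fitted differences of antigen presentation genes that were rerun were those at an unadjusted p under 0.05 in edgeR, with Ciita added for Ifnar1 loss. All 23 kept their direction under every setting. They were picked by their p in these same libraries, so this is no independent support. Of 140 medians of gene groups under other settings, 6 moved by more than 1 SD and the others did not.

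With 1 library per group, no group has an error of its own, and 3 or 4 residual degrees of freedom limit what edgeR can call. The 2 targeted transcripts did not follow the labels, so the genotype contrasts rest on the labels alone. Depth is not what limits most genes named here, while Rfxap and H2-Q4 lie near the floor of 3 counts in some libraries. Some genes of low level swung far beyond that floor between libraries of a cell type. In HSC the class I relative Hfe had 0, 0, 61.6 and 0 CPM, and Mr1 had 19.7, 22.8, 0.0255 and 62.1 CPM. Ciita, Nfat5 and Cd274 have levels of that order in several libraries, and whether their spread goes beyond such swings was not tested.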
